A study of Mus musculus with 12 samples.

Results

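The data compared mouse bone marrow-derived macrophages (BMDMs) treated with JQ1, a BET bromodomain inhibitor, with BMDMs that received both iBRD9, which blocks the bromodomain of BRD9, and the glucocorticoid dexamethasone (DEX). The comparison covered 3 JQ1 libraries and 3 DEX and iBRD9 libraries, chosen by their treatment labels, that is 6 of the 12 RNA-seq libraries of the series. It was made across the 11670 genes, of 21899 in the table, that passed a filter on low counts. The macrophages were grown from the leg bones of C57BL/6 mice, and every group received M-CSF at 50 ng/ml with RANKL at 100 ng/ml, the cytokines that turn BMDMs into osteoclasts. By their labels, both groups therefore differed from the shared control, which had M-CSF and RANKL alone (MR, 3 libraries), by the compounds. The libraries also divided by liver RNA, as described below. The remaining 3 libraries were treated with dBRD9, a BRD9 degrader. They entered the filter on low counts, the scaling between libraries and the shared estimate of spread, and were not compared. No library had DEX alone or iBRD9 alone, so the effects of those 2 compounds cannot be told apart. The labels give no compound doses or treatment times. The study's text does give doses and calls those of both DEX and iBRD9 in the combined treatment low. It reports that this dose of iBRD9 by itself had no apparent effect on osteoclast formation. It also reports that the 2 compounds combined promoted osteoclast formation, with osteoclast-related genes higher than in the control. The labels do not say whether replicates were separate cultures, so the p-values measure the spread between these libraries, which may be technical.

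BET proteins, such as BRD2 and BRD3, bind acetylated histones at enhancers and promoters and help recruit P-TEFb, the kinase that releases paused RNA polymerase II; JQ1 occupies their acetyl-lysine pocket. BRD9 is the bromodomain subunit of the non-canonical BAF chromatin remodelling complex. DEX activates the glucocorticoid receptor, a transcription factor that induces anti-inflammatory genes and represses many inflammatory ones. In macrophages, a tonic type I interferon signal maintains a set of antiviral genes, and during osteoclast formation RANKL drives NFATc1 and c-Fos while repressors such as IRF8 are switched off.

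Levels are given as CPM, the counts of a gene scaled to the library's total, computed from the deposited counts with trimmed mean of M values (TMM) scaling. Total counts per library were 14875951 to 17788153 in the 6 libraries. The cells carried macrophage RNA in both groups, with Csf1r, the M-CSF receptor, at 2328, 2309 and 2167 CPM in JQ1 libraries and 1518, 1389 and 1405 CPM in DEX and iBRD9 libraries. Other macrophage markers went both ways with JQ1 on the log2 scale. Adgre1 was higher (0.46), Cd68 (-0.43) and Cd14 (-0.69) were lower, and Itgam (0.11) was not called. The osteoclast genes Acp5 and Ctsk were at most 11 CPM in all 6, while the whole list of osteoclast effector genes summed to 0.254 to 0.257% of counts in JQ1 libraries and 0.277 to 0.289% in DEX and iBRD9 libraries. The 10 most abundant genes took 12.4 to 13.7% of counts in JQ1 libraries and 8.57 to 8.99% in DEX and iBRD9 libraries (exact permutation test, two-sided p = 0.10, the smallest that 3 against 3 libraries allow). With JQ1 this included Lyz2, lysozyme, at 2.75 to 3.17% of counts, against 1.32 to 1.51% with DEX and iBRD9. Markers of other cells also differed, beside 30.3% of all genes higher and 31.4% lower. Liver RNA was present in JQ1 libraries, with Alb at 1031, 744 and 816 counts, against 1, 0 and 1 in DEX and iBRD9 libraries, and 27 of the 31 hepatocyte markers tested, of 50 listed, were higher. Of the 31, 19 had at least 10 counts in every JQ1 library and fewer than 10 in every DEX and iBRD9 library, so they had to differ once tested. Here and below, this means that the counts of such genes could not overlap, though a call was not certain. The list's summed share was nevertheless 0.0730 to 0.0825% of counts in JQ1 libraries and 0.1 to 0.108% in DEX and iBRD9 libraries with Ass1 and C3, which macrophages also express, lower. Of the MR libraries only replicate 3 held liver RNA (801 Alb counts, against 0 and 2). Skeletal muscle markers had 5 higher and 2 lower of 10. Among them, Acta1 had 83, 45 and 79 counts in JQ1 libraries and 0 in every DEX and iBRD9 library, so it had to differ once tested. Acta1 divided the MR libraries as Alb did, with 55 counts in replicate 3 and 0 in the others. This division of the libraries follows the 2 groups compared, so between them it cannot be told apart from treatment. With a term for it, which rests on the 1 MR library that held liver RNA, 1941 genes were higher and 2341 lower, and 7143 of the 7200 called genes kept their direction. Neutrophil markers went the other way, with 15 of 15 lower and a summed share of 0.00536 to 0.00674% in JQ1 libraries and 0.0241 to 0.0294% in DEX and iBRD9 libraries. Stromal markers had 8 of 11 lower, dendritic cell markers 1 higher and 4 lower of 6, endothelial and megakaryocyte markers 6 of 9 lower, mast cell markers 3 of 3 lower (0 with the term for liver RNA, and 0 of the 1 tested in the 6 libraries alone), B cell markers 2 of 2 lower, and Cd4 was the 1 T and NK cell marker tested and was lower. Cd3e had at most 1 count, and no erythroid marker was tested. Some of these markers had at least 10 counts in every DEX and iBRD9 library and fewer than 10 in every JQ1 library. Once tested, they had to differ. They were 3 of 15 neutrophil, 3 of 11 stromal, 1 of 6 dendritic cell, 1 of 9 endothelial and megakaryocyte, 2 of 3 mast cell and 1 of 2 B cell markers. In bulk RNA, fewer cells of a type and less RNA per cell cannot be told apart.

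Most expressed genes differed. With edgeR's quasi-likelihood test and Benjamini-Hochberg adjustment, 3535 genes were higher (30.3%) and 3665 lower (31.4%) with JQ1, together 61.7% of the genes tested at an adjusted p under 0.05. The decreases were larger than the increases. At least 2-fold changes were called for 562 genes that were higher (4.82%) and 1406 that were lower (12%), and at least 8-fold changes for 67 and 365 genes. For 64.4% of genes, all 3 JQ1 libraries lay on 1 side of all 3 DEX and iBRD9 libraries. The median over all genes was -0.0022 on the log2 scale. Scaling by total counts alone moved that median to -0.20 and gave 2161 genes higher and 5234 lower, so that 29.2% of calls were higher against 49.1% with TMM; directions below are relative to the median of all genes. For 1253 genes (10.7%), the 95% interval of the difference lay within a fold of 1.2 in either direction.

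**Figure D1:**
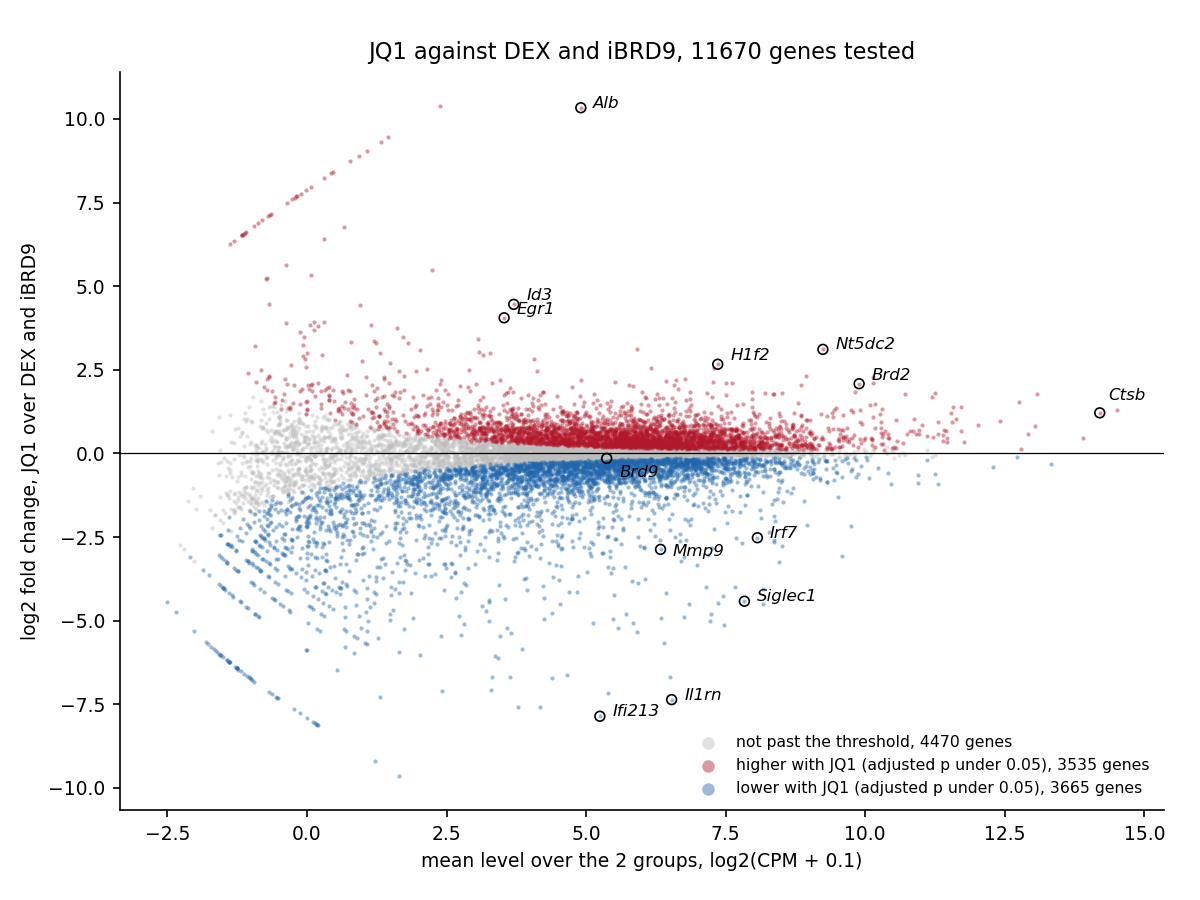
Each point is 1 of the 11670 genes tested, with its mean level over both groups on the x axis, as log2(CPM + 0.1), and its log2 fold change, JQ1 over DEX and iBRD9, on the y axis. Red points (3535) were higher and blue points (3665) lower with JQ1, the 1406 genes at least 2-fold lower spread further from 0 than the 562 at least 2-fold higher, and the diagonal rows at low levels are genes with few or no counts in 1 group, whose fitted folds are no bounds. Total-count scaling shifts the cloud down by 0.20.

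The libraries given DEX and iBRD9 lay close to MR libraries. Against MR, 69 genes were higher (0.591%) and 159 lower (1.36%) with DEX and iBRD9, in all 1.95% of genes, whereas JQ1 against MR gave 61.6%. These comparisons share the MR libraries, and each shares libraries with the comparison described here. The MR libraries were themselves divided, since only replicate 3 held liver RNA (801 Alb counts, against 0 and 2). How this division bears on the number of genes called against MR was not tested. For some genes whose DEX and iBRD9 level departs from MR, the MR level or the difference from MR is given. Where neither is given, the 2 levels need not be alike.

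The 12 largest decreases were led by genes of the interferon response. Ifi213 (ENSMUSG00000073491, GRCm39 chr1:173393846-173426881), a member of the interferon-inducible HIN-200 cluster of nucleic acid sensors, had 0.443, 0.185 and 0.349 CPM in JQ1 libraries, against 70.7, 86.2 and 69.3 CPM in DEX and iBRD9 libraries (-7.85 ± 0.19 on the log2 scale, adjusted p = 6.1e-24), and the groups did not overlap, which was a condition of choice for these genes and for the 12 largest increases. Of 2 other members of the cluster, Ifi206 averaged 0.578 CPM with JQ1 and 83.2 CPM with DEX and iBRD9, and Ifi208 0.237 CPM with JQ1 and 24.3 CPM with DEX and iBRD9. Ifit3b averaged 0.188 CPM with JQ1 and 35.9 CPM with DEX and iBRD9. Its near-identical copy Ifit3, an antiviral gene of the IFIT family, averaged 1.77 CPM with JQ1 and 179 CPM with DEX and iBRD9. Because the members of these 2 clusters are similar in sequence, the split of reads between them is uncertain. Ifi44, another interferon-induced gene, averaged 0.489 CPM with JQ1 and 49.9 CPM with DEX and iBRD9.

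The other large decreases lay outside these 2 clusters. Il1rn (GRCm39 chr2:24226865-24241506), the secreted antagonist of the interleukin-1 receptor, had 0.812, 1.24 and 1.26 CPM in JQ1 libraries, against 169, 203 and 179 CPM in DEX and iBRD9 libraries (-7.36 ± 0.13, adjusted p = 1.4e-27), a 164-fold lower level. Tnfsf10 (TRAIL), a death receptor ligand, had 0, 0.185 and 0 CPM with JQ1, against 9.62, 11.8 and 9.9 CPM with DEX and iBRD9. P2ry14, the receptor for UDP-sugars, which lies within Med12l on the other strand, had 0.369, 0 and 0.0698 CPM with JQ1, against 19, 21.3 and 17.7 CPM with DEX and iBRD9. Every JQ1 library was below every DEX and iBRD9 library for both. Akap6, an anchoring protein for protein kinase A, had 0.148, 0.0618 and 0.21 CPM in JQ1 libraries, against 24.7, 32.4 and 24.7 CPM in DEX and iBRD9 libraries (-7.57 ± 0.27). Nptx1, a pentraxin known from neurons, averaged 0.389 CPM with JQ1 and 41.2 CPM with DEX and iBRD9. Fam83f averaged 0.185 CPM with JQ1 and 19.4 CPM with DEX and iBRD9. Across all 12 genes the fold ranged from 98.6 to 232, and DEX and iBRD9 against MR libraries gave log2 fold changes from -0.29 to 0.29.

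The 12 largest increases were smaller, with folds from 5.88 to 22. They included both Id genes of the list of osteoclast repressors, whose products bind helix-loop-helix factors and keep them from DNA. Id3 (GRCm39 chr4:135870808-135873066) had 23.9, 28.1 and 22.2 CPM in JQ1 libraries, against 0.396, 0.895 and 2.07 CPM in DEX and iBRD9 libraries (4.46 ± 0.30, adjusted p = 1.3e-11). Id1 had 13.5, 15.4 and 17.9 CPM with JQ1, against 2.49, 1.61 and 1.96 CPM with DEX and iBRD9. Egr1, an immediate early zinc finger factor, had 21, 19.5 and 24.3 CPM in JQ1 libraries, against 1.64, 1.31 and 0.921 CPM in DEX and iBRD9 libraries (4.06 ± 0.27).

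Nt5dc2, a protein of the 5′-nucleotidase family, was the most abundant of the 12, with 1025, 1094 and 1136 CPM in JQ1 libraries, against 138, 115 and 123 CPM in DEX and iBRD9 libraries (3.11 ± 0.067, adjusted p = 3e-25). Its gene overlaps Stab1, which encodes a scavenger receptor, on the other strand, so reads of the 2 genes cannot be separated if the counting ignored strand. DEX and iBRD9 libraries were also above MR libraries for Nt5dc2 (0.33, adjusted p = 0.0055), which averaged 99.8 CPM in MR libraries. Tspoap1, which binds the mitochondrial translocator protein, averaged 109 CPM in JQ1 libraries and 12.4 CPM in DEX and iBRD9 libraries. Epas1, the hypoxia-inducible factor HIF-2α, had 21.7, 13 and 16.4 CPM with JQ1, against 2.55, 1.73 and 2.07 CPM with DEX and iBRD9. Lifr, the receptor for leukaemia inhibitory factor, had 30, 27 and 30.2 CPM with JQ1, against 4.41, 3.76 and 4.14 CPM with DEX and iBRD9. Nabp1, a single-stranded DNA binding protein, averaged 268 CPM with JQ1 and 45.6 CPM with DEX and iBRD9. MR libraries averaged 56.9 CPM for Nabp1, above DEX and iBRD9 libraries (-0.32, adjusted p = 0.013). Ccdc92, whose span overlaps Dnah10 and Zfp664, averaged 15 CPM with JQ1 and 1.38 CPM with DEX and iBRD9. The linker histone gene H1f2 and the core histone genes H2bc4 and H4c9 made up the rest.

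**Figure D2:**
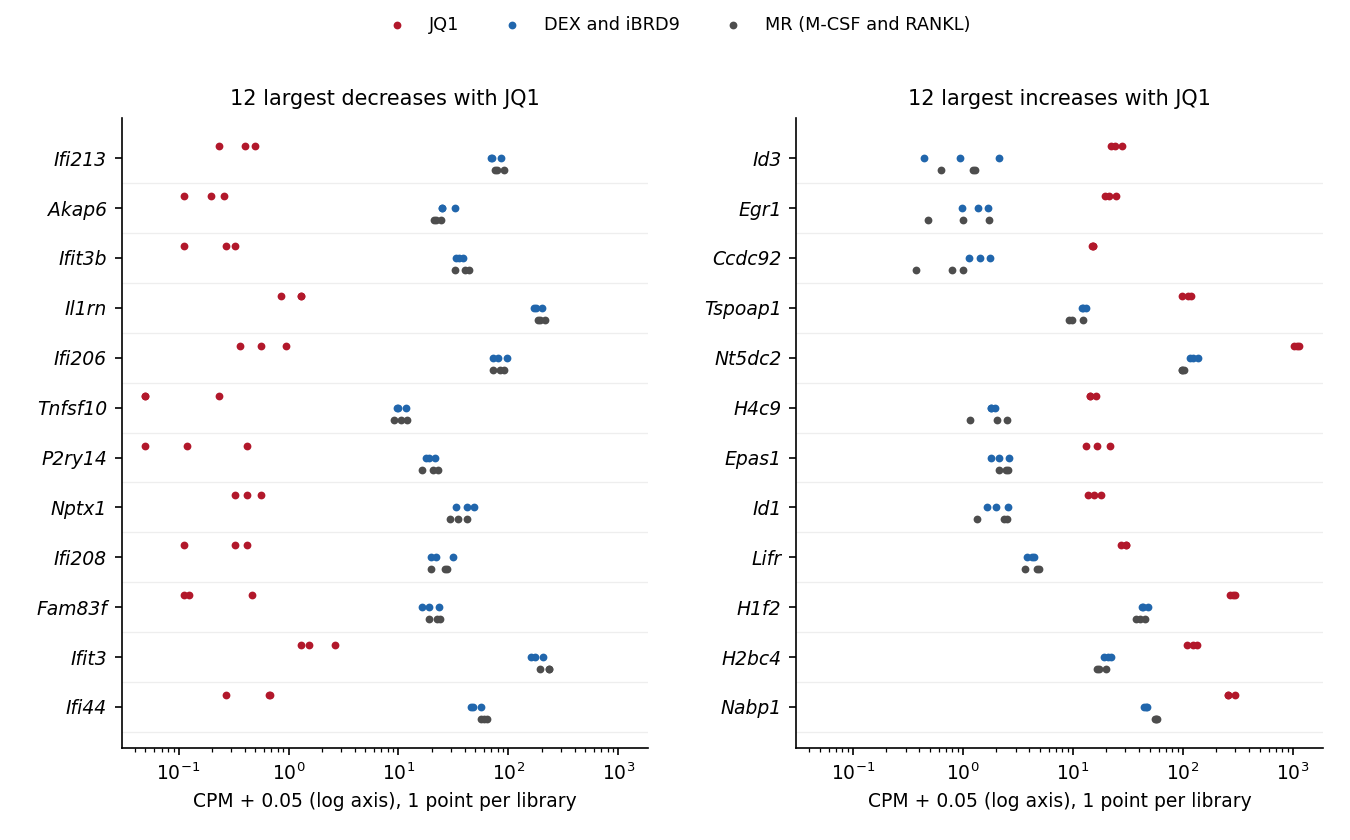
Levels of the 12 genes with the largest decreases (left) and the 12 with the largest increases (right), as CPM + 0.05 on a log axis, with 1 point per library (red JQ1, blue DEX and iBRD9, grey MR). The genes were chosen to have JQ1 points apart from the DEX and iBRD9 points, and the DEX and iBRD9 points lie nearer to the MR points.

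Among genes of the inhibited pathway itself, Brd2 differed most clearly. Of 27 BET proteins and P-TEFb regulators, 12 were higher and 7 lower, beside 30.3% and 31.4% of all genes. Their median of 0.16 became -0.035 with total-count scaling, beside medians of -0.0022 and -0.20 over all genes. The term for liver RNA left 6 higher and 1 lower. Brd2 (GRCm39 chr17:34330996-34341745) had 1566, 1501 and 1541 CPM in JQ1 libraries, against 365, 363 and 359 CPM in DEX and iBRD9 libraries (2.08 ± 0.05, adjusted p = 2.7e-24). Hexim1, the inhibitory subunit that keeps P-TEFb in its inactive complex with 7SK RNA, had 221, 237 and 255 CPM in JQ1 libraries, against 91.9, 84.1 and 93 CPM in DEX and iBRD9 libraries (1.40 ± 0.067). Both genes were higher in every JQ1 library. Mepce, which caps 7SK, averaged 80.3 CPM with JQ1 and 44.7 CPM with DEX and iBRD9. Cdk9, the kinase of P-TEFb, averaged 138 CPM with JQ1 and 102 CPM with DEX and iBRD9, and both were higher. For Brd3 the 95% interval of the difference ran from -0.02 to 0.34 and the test was not passed. The members with the largest decreases were lowly expressed. Brdt, a BET gene of germ cells, had 0.812, 0.803 and 0.908 CPM with JQ1, against 3.28, 2.45 and 2.07 CPM with DEX and iBRD9, and Hexim2, a paralog of Hexim1, had 1.03, 0.371 and 0.838 CPM with JQ1, against 2.38, 2.86 and 2.42 CPM with DEX and iBRD9. Against MR, the DEX and iBRD9 libraries had log2 fold changes of 0.15 for Brd2 and 0.14 for Hexim1 (adjusted p = 0.12 and 0.33). The calls of Brdt and Cdk9 were lost with the term for liver RNA (adjusted p = 0.26 and 0.12).

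Genes of the BAF complex differed in both directions. Of 27 subunits tested, 7 were higher and 7 lower (2 and 14 with total counts), beside 61.7% of all genes called, with a median of 0.0043 that became -0.19 with total-count scaling, like that of all genes. The list summed to 0.755 to 0.772% of counts in JQ1 libraries and 0.915 to 0.942% in DEX and iBRD9 libraries. Brd9, the target of iBRD9, had 40.3, 37.8 and 39.2 CPM in JQ1 libraries, against 43.2, 43.1 and 43.6 CPM in DEX and iBRD9 libraries, and its interval of -0.31 to 0.02 on the log2 scale left the test not passed (adjusted p = 0.11). Bcl7a, an accessory subunit, was the only member at least 2-fold lower, at 2.41 CPM in JQ1 libraries and 5.87 CPM in DEX and iBRD9 libraries. Among the partners of BRD9 in the non-canonical complex, Bicral was lower (23.2 CPM with JQ1 and 38.7 CPM with DEX and iBRD9, -0.74 ± 0.099). The term for liver RNA left 2 of the 14 calls of the list, and that of Bcl7a was lost (adjusted p = 0.25). With total counts Brd9 passed the test (-0.34, adjusted p = 0.00049).

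Glucocorticoid target genes did not stand higher in the libraries labelled as given DEX. Of 31 genes of the glucocorticoid receptor list, 17 were higher and 8 lower with JQ1 than with DEX and iBRD9, with a median of 0.38 (0.18 with total counts). The shares of all genes were 30.3% higher and 31.4% lower. Of the 31, 1 had at least 10 counts in every DEX and iBRD9 library and fewer than 10 in every JQ1 library. It had to differ once tested. Fkbp5, a chaperone of the receptor and a common marker of its activity, had 52.3, 53.5 and 53.3 CPM in JQ1 libraries, against 41.4, 36.4 and 39.2 CPM in DEX and iBRD9 libraries (0.44 ± 0.084, adjusted p = 4.5e-05), with a mean of 36.5 CPM in MR libraries. Tsc22d3 (GILZ), a mediator of anti-inflammatory glucocorticoid action, had 31, 36.4 and 32.3 CPM in JQ1 libraries, against 23.9, 26.2 and 23.4 CPM in DEX and iBRD9 libraries (0.44 ± 0.10), with 23.3 CPM in MR libraries. For both genes every JQ1 library was above every DEX and iBRD9 library, and neither gene passed the test in DEX and iBRD9 against MR libraries (log2 fold changes 0.10 and 0.07, adjusted p = 0.64 and 0.8). Per1, a clock gene with a glucocorticoid response element, did not pass (0.11 ± 0.11, adjusted p = 0.39, -0.08 with total counts), except without JQ1 replicate 3 (0.26, adjusted p = 0.034). With the term for liver RNA, 10 members of the list were higher and 4 lower, and the calls of Fkbp5 and Tsc22d3 were lost (adjusted p = 0.08 and 0.17).

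Other members of the list were higher by more. Klf2, a zinc finger factor that quiets macrophages, had 117, 149.9 and 158 CPM in JQ1 libraries, against 35.6, 29.2 and 29.8 CPM in DEX and iBRD9 libraries (2.17 ± 0.11). Mertk, a receptor for the uptake of apoptotic cells, had 194, 174 and 178 CPM with JQ1, against 55.7, 52.1 and 46.1 CPM with DEX and iBRD9. Cebpd, a C/EBP transcription factor, averaged 119 CPM with JQ1 and 34.5 CPM with DEX and iBRD9. The actin regulator gene Marcksl1 averaged 364 CPM with JQ1 and 173 CPM with DEX and iBRD9. Sgk1, a serum- and glucocorticoid-induced kinase, averaged 131 CPM with JQ1 and 66.7 CPM with DEX and iBRD9, and all 5 were higher with no overlap. Lower members included Anxa1, an anti-inflammatory annexin, with 651, 744 and 729 CPM with JQ1, against 993, 1018 and 1019 CPM with DEX and iBRD9. The clock gene Per2 averaged 1.81 CPM with JQ1 and 4.77 CPM with DEX and iBRD9. Dusp1, a MAP kinase phosphatase, averaged 55.8 CPM with JQ1 and 66.5 CPM with DEX and iBRD9. Dusp1 was 1 of 2 list members that passed in DEX and iBRD9 against MR libraries (0.27, adjusted p = 0.043). The receptor gene Nr3c1 averaged 119 CPM with JQ1 and 99.9 CPM with DEX and iBRD9 (0.25 ± 0.074, adjusted p = 0.0038), and its call, like that of Dusp1, was lost with the term for liver RNA (adjusted p = 0.21 and 0.33). Of the tested genes with a promoter window, 0.0108% held the letters of the glucocorticoid response element, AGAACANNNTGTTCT, that is 1 gene.

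Interferon-stimulated genes fell almost throughout. Of 72 interferon-stimulated effector genes tested, 69 were lower and 2 higher, with 66 at least 2-fold lower, against 31.4% of all genes lower and 12% at least 2-fold lower. Their median of -2.83 (-3.03 with total counts) compares with -0.0022 over all genes. Their summed share was 0.334 to 0.367% of counts in JQ1 libraries and 1.28 to 1.41% in DEX and iBRD9 libraries. Of the 72, 6 had at least 10 counts in every DEX and iBRD9 library and fewer than 10 in every JQ1 library. Those 6 had to differ once tested. Ifit1, which binds viral RNA that lacks a normal cap, had 2.73, 3.4 and 3.56 CPM in JQ1 libraries, against 158, 186 and 153 CPM in DEX and iBRD9 libraries (-5.67 ± 0.12, adjusted p = 4.4e-25). Cxcl10, a chemokine for activated T cells, had 7.24, 9.57 and 9.64 CPM in JQ1 libraries, against 269, 332 and 263 CPM in DEX and iBRD9 libraries (-5.02 ± 0.15), and the groups did not overlap for either. Aim2, a sensor of cytosolic DNA, was higher (63.7 CPM with JQ1 and 45.9 CPM with DEX and iBRD9), as was Shisa5, at 369.8 CPM with JQ1 and 337 CPM with DEX and iBRD9 (0.13 ± 0.055, adjusted p = 0.038), whose direction flipped with total counts (-0.07) and whose call was lost without JQ1 replicate 3 or any 1 of the DEX and iBRD9 libraries (adjusted p from 0.053 to 0.13).

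The genes that sense nucleic acids and carry the interferon signal moved less as a group, with 20 of 35 lower, 11 higher and a median of -0.31. Of all genes, 31.4% were lower and 30.3% higher. Irf7, the factor that amplifies type I interferon production, had 81, 67.7 and 90.7 CPM in JQ1 libraries, against 448, 492 and 429.8 CPM in DEX and iBRD9 libraries (-2.52 ± 0.11, adjusted p = 1.3e-10). Stat2, a subunit of the ISGF3 complex that binds interferon-stimulated response elements, had 124, 108 and 120.2 CPM in JQ1 libraries, against 338, 356 and 328 CPM in DEX and iBRD9 libraries (-1.54 ± 0.062). The RNA sensor gene Rigi averaged 60.6 CPM with JQ1 and 384 CPM with DEX and iBRD9. Tlr7, the endosomal sensor of single-stranded RNA, averaged 23.1 CPM with JQ1 and 137 CPM with DEX and iBRD9. Socs1, an inhibitor of cytokine signalling, averaged 0.68 CPM with JQ1 and 3.87 CPM with DEX and iBRD9, and all these genes were lower. Irf3, which responds to the sensors, was higher (43.5 CPM with JQ1 and 27.8 CPM with DEX and iBRD9). So were Ifngr1, a subunit of the interferon-γ receptor (266 CPM with JQ1 and 165 CPM with DEX and iBRD9), and Jak1, a receptor kinase (406 CPM with JQ1 and 287 CPM with DEX and iBRD9). Stat3 averaged 157 CPM with JQ1 and 110.0 CPM with DEX and iBRD9. Of the effector list, 4 of 72 genes were lower in DEX and iBRD9 against MR libraries, beside 1.36% of all genes.

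The core of the interferon-stimulated response element, GAAANNGAAA on either strand, was searched in windows of 250 bases before to 50 after the start of each gene (RefSeq, GRCm38.p6). It was present for 37 of 59 interferon-stimulated effector genes with a window (62.7%), for 102 of 1055 genes at least 2-fold lower (9.67%), for 13 of 435 at least 2-fold higher (2.99%) and for 4.07% of all 9232 tested genes with a window. A match is a description of the letters and not a shown binding site. These sites belong to genes whose levels are given above and are printed to show how alike they are, 5′ to 3′ on the strand of the gene, with the match in capitals.
Ifit1: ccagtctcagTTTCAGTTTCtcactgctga
Ifit3: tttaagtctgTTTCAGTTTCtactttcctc
Ifit3b: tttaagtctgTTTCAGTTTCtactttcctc
Ifi213: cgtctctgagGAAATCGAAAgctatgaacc
Ifi206: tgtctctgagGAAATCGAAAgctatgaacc
Cxcl10: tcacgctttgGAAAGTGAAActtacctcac
Stat2: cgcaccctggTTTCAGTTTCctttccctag
They lie at chr19:34640794-34640823, chr19:34583397-34583426 and chr19:34607793-34607822 (plus strand), chr1:173599326-173599355, chr1:173491339-173491368 and chr5:92349083-92349112 (minus strand) and chr10:128270266-128270295 (plus strand). Ifit3 and Ifit3b share all 30 bases, and Ifi213 and Ifi206 share the match and its right flank.

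Inflammatory genes were also mostly lower. Of 46 cytokine, chemokine and NF-κB genes, 36 were lower and 7 higher, beside 31.4% and 30.3% of all genes, with a median of -0.94. Of the 46, 3 had at least 10 counts in every DEX and iBRD9 library and fewer than 10 in every JQ1 library. Those 3 had to differ once tested. The interferon-inducible chemokine gene Cxcl9 averaged 0.212 CPM with JQ1 and 5.41 CPM with DEX and iBRD9. Ccl12, a monocyte chemoattractant, averaged 0.689 CPM with JQ1 and 16.7 CPM with DEX and iBRD9. Nos2, which makes nitric oxide, had 0, 0 and 0.349 CPM with JQ1, against 3.62, 3.34 and 3.57 CPM with DEX and iBRD9. Tnf went the other way with a small difference, at 81.8, 82 and 78.3 CPM in JQ1 libraries, against 65.2, 69.2 and 65.1 CPM in DEX and iBRD9 libraries (0.28 ± 0.068, adjusted p = 0.00082), and MR libraries averaged 54.7 CPM. Its JQ1 libraries were above all others, and DEX and iBRD9 libraries were above MR libraries (0.28, adjusted p = 0.025). Higher members included Tnfaip2, a TNF-induced gene, at 870.1 CPM with JQ1 and 399 CPM with DEX and iBRD9. The NF-κB inhibitor gene Nfkbia averaged 404 CPM with JQ1 and 249.5 CPM with DEX and iBRD9, and its relative Nfkbiz 33.1 CPM with JQ1 and 17 CPM with DEX and iBRD9.

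Chemokine receptors fell in 15 of 20 cases, beside 31.4% of all genes, with a median of -1.65. Of the 20, 1 had at least 10 counts in every DEX and iBRD9 library and fewer than 10 in every JQ1 library. It had to differ once tested. C5ar1, the complement C5a receptor, was the 1 member that was higher (1459 CPM with JQ1 and 854 CPM with DEX and iBRD9). Ccr2 (GRCm39 chr9:123901982-123913594), which guides monocytes out of the marrow, had 0.812, 0.741 and 1.05 CPM in JQ1 libraries, against 12.2, 14 and 13.8 CPM in DEX and iBRD9 libraries (-3.94 ± 0.19, adjusted p = 7.4e-17). MR libraries had 34.8, 29.6 and 27.1 CPM, so both treatments were below MR (-1.19 for DEX and iBRD9, adjusted p = 5.5e-07, and -5.13 for JQ1). The 3 groups formed 3 separate steps without overlap. Ccr1 averaged 7.28 CPM with JQ1 and 39.8 CPM with DEX and iBRD9. Ccr3, known as the eosinophil eotaxin receptor, averaged 0.3 CPM with JQ1 and 5.78 CPM with DEX and iBRD9, and both were lower.

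Macrophage identity and scavenger receptor genes split in both directions, 20 of 53 higher and 26 lower (median -0.096), beside 30.3% and 31.4% of all genes. Siglec1, a sialic acid receptor induced by interferon, had 28.4, 17.8 and 15.4 CPM in JQ1 libraries, against 441, 452 and 415 CPM in DEX and iBRD9 libraries (-4.42 ± 0.20, adjusted p = 3.9e-08). The high-affinity IgG receptor gene Fcgr1 had 6.57, 9.82 and 10.5 CPM with JQ1, against 168, 172 and 148 CPM with DEX and iBRD9. Clec4n (dectin-2), a fungal sensor, averaged 5.06 CPM with JQ1 and 59.5 CPM with DEX and iBRD9. Ly6c2, a marker of inflammatory monocytes, averaged 1 CPM with JQ1 and 9.87 CPM with DEX and iBRD9, and all 4 were lower. Cebpa, a myeloid C/EBP factor, averaged 159 CPM with JQ1 and 41.5 CPM with DEX and iBRD9. Trem1, an amplifier of myeloid activation, averaged 29.2 CPM with JQ1 and 5.26 CPM with DEX and iBRD9. Gas6, the ligand of MerTK, averaged 511 CPM with JQ1 and 151 CPM with DEX and iBRD9. Hmox1, which degrades heme, averaged 3577 CPM with JQ1 and 1102 CPM with DEX and iBRD9, and these 4 were higher. Neutrophil and dendritic cell markers moved with the genes that were lower, with the summed shares given before, and their part in these levels was not tested.

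Genes that mature osteoclasts use were mostly lower with JQ1. Of 20 osteoclast effector genes tested, 12 were lower and 3 higher, beside 31.4% and 30.3% of all genes, with a median of -0.61. Of the 20, 2 had at least 10 counts in every DEX and iBRD9 library and fewer than 10 in every JQ1 library. Those 2 had to differ once tested. Mmp9 (GRCm39 chr2:164780439-164797771), a gelatinase secreted by osteoclast precursors, had 16.5, 20.6 and 21 CPM in JQ1 libraries, against 147, 146 and 132 CPM in DEX and iBRD9 libraries (-2.87 ± 0.083, adjusted p = 2.1e-22). Acp5, the gene of the bone-resorption enzyme TRAP, had 2.73, 2.35 and 3 CPM with JQ1, against 7.41, 11 and 8.4 CPM with DEX and iBRD9 (-1.73 ± 0.19). Ctsk, the collagen-degrading cathepsin K, had 1.85, 0.865 and 2.1 CPM with JQ1, against 4.3, 4.36 and 3.11 CPM with DEX and iBRD9 (-1.31 ± 0.28), and MR libraries had 7.28, 7.18 and 9.87 CPM. Ctsk thus formed 3 separate levels and was also lower in DEX and iBRD9 than in MR libraries (-1.04, adjusted p = 0.011). The study, in contrast, describes osteoclast-related genes as activated by this treatment. Of the 20 genes here, 1 was higher and 1 lower in DEX and iBRD9 against MR libraries.

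The fusion gene Dcstamp averaged 0.397 CPM with JQ1 and 5.68 CPM with DEX and iBRD9. Ocstamp, its partner in fusion, averaged 0.0412 CPM with JQ1 and 1.24 CPM with DEX and iBRD9. Atp6v0d2, the osteoclast subunit of the V-ATPase, averaged 4.61 CPM with JQ1 and 23.9 CPM with DEX and iBRD9. Src, needed for the ruffled border, had 2.44, 4.39 and 3.63 CPM with JQ1, against 24.8, 28.3 and 25.6 CPM with DEX and iBRD9 (-2.89 ± 0.15). The membrane collagenase gene Mmp14 had 5.02, 6.86 and 5.31 CPM with JQ1, against 38.5, 44.8 and 34.8 CPM with DEX and iBRD9. All 5 were lower, and none had overlapping groups. The 3 members that were higher included Cd9, a tetraspanin (319 CPM with JQ1 and 212 CPM with DEX and iBRD9). The others were Ckb, brain-type creatine kinase (910.2 CPM with JQ1 and 545 CPM with DEX and iBRD9), and Ostm1, a partner of the ClC-7 chloride transporter (109 CPM with JQ1 and 64.8 CPM with DEX and iBRD9).

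Upstream of these, RANK signalling genes and osteoclast transcription factors did not move one way. Of 32, 15 were higher and 13 lower, beside 30.3% and 31.4% of all genes, and their median of 0.081 became -0.12 with total counts. Of the 32, 1 had at least 10 counts in every DEX and iBRD9 library and fewer than 10 in every JQ1 library. It had to differ once tested. Nfatc1, the main transcription factor of osteoclast formation, had 86.9, 78.8 and 76 CPM in JQ1 libraries, against 66, 63.6 and 67.8 CPM in DEX and iBRD9 libraries (0.29 ± 0.076, adjusted p = 0.0016), a 1.22-fold difference. Fos had 106, 109 and 106 CPM in JQ1 libraries, against 227, 242 and 227 CPM in DEX and iBRD9 libraries (-1.12 ± 0.062), with 184, 199 and 187 CPM in MR libraries, so that DEX and iBRD9 libraries lay above MR (0.29, adjusted p = 0.0082) and JQ1 libraries below. Jdp2, a partner of AP-1 factors, showed the same order of groups, with 26.4, 23.9 and 24.2 CPM in JQ1 libraries, against 93.9, 98.7 and 96.1 CPM in DEX and iBRD9 libraries and 64.1, 75.5 and 70.2 CPM in MR libraries. Blnk, an adaptor that links immunoreceptors to calcium signals, averaged 15.9 CPM with JQ1 and 109 CPM with DEX and iBRD9 (-2.78 ± 0.077). Fosl1, an AP-1 subunit, averaged 0.401 CPM with JQ1 and 2.51 CPM with DEX and iBRD9. The receptor itself, Tnfrsf11a (RANK), was 1.32-fold lower (-0.40 ± 0.065), and Foxp1, a forkhead repressor, 1.34-fold lower (-0.42 ± 0.068). The AP-1 subunit gene Jund averaged 15.8 CPM with JQ1 and 7.85 CPM with DEX and iBRD9. The kinase gene Tec averaged 104 CPM with JQ1 and 55 CPM with DEX and iBRD9, and Map3k14 (NIK), the kinase of the alternative NF-κB pathway, 67.9 CPM with JQ1 and 37.6 CPM with DEX and iBRD9. These 3 were higher. With the term for liver RNA, 10 members were higher and 8 lower, and the calls of Nfatc1 and Tnfrsf11a were lost (adjusted p = 0.16 and 0.06).

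Osteoclast repressors were higher in 9 of 14 cases and lower in 2, beside 30.3% and 31.4% of all genes, with a median of 0.78. Besides Id3, Id1 and Egr1, Irf8, whose protein restrains NFATc1, had 253, 253 and 244 CPM in JQ1 libraries, against 118, 119.8 and 116 CPM in DEX and iBRD9 libraries (1.08 ± 0.061, adjusted p = 2e-15). Irf4 averaged 2.27 CPM with JQ1 and 0.616 CPM with DEX and iBRD9. All JQ1 libraries were above all DEX and iBRD9 libraries for each of these 5 genes. Of the 2 members that were lower, Tnfaip3 (A20), a brake on NF-κB, averaged 41.2 CPM with JQ1 and 80.6 CPM with DEX and iBRD9. Rbpj, the transcription factor of Notch signalling, averaged 454 CPM with JQ1 and 629.6 CPM with DEX and iBRD9. Irf8 had a log2 fold change of -0.14 in DEX and iBRD9 against MR libraries (adjusted p = 0.24). With the term for liver RNA, 6 members were higher and 2 lower, and the call of Irf4 was lost (adjusted p = 0.52).

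**Figure D3:**
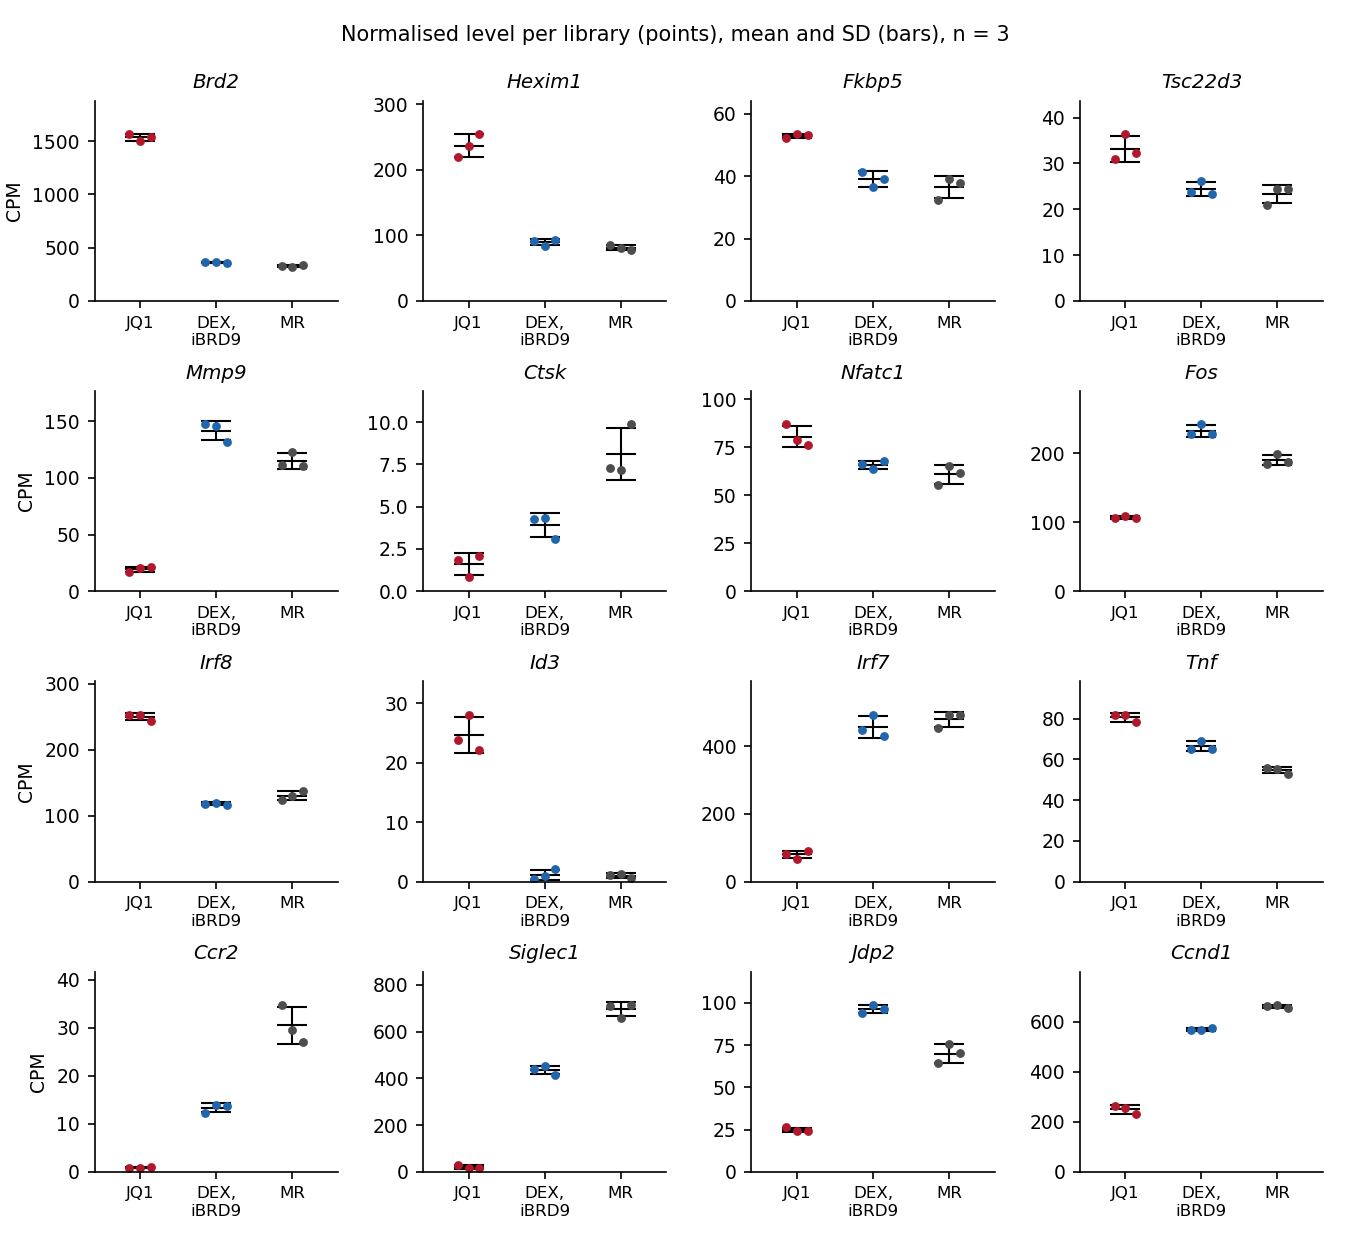
Levels in CPM for 16 genes, 1 panel each from 0, with points for the 3 JQ1, the 3 DEX and iBRD9 and the 3 MR libraries and bars for the mean and SD. DEX and iBRD9 libraries sit near MR libraries for Brd2, Hexim1 and Irf7, between JQ1 and MR libraries for Ccr2 (0.867, 13.4 and 30.5 CPM on average in JQ1, DEX and iBRD9, and MR libraries) and Ctsk, and above both for Fos and Jdp2.

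Proliferation genes were lower. Of 59 mitosis and G2/M genes, 56 were lower (median -0.76), and of 59 DNA replication and S phase genes, 51 were lower and 2 higher (median -0.62). Of all genes, 31.4% were lower and 30.3% higher. Of the S phase genes, 1 had at least 10 counts in every DEX and iBRD9 library and fewer than 10 in every JQ1 library. It had to differ once tested. Sizes were moderate. Mki67, a marker of cycling cells, had 443, 398 and 398 CPM in JQ1 libraries, against 573, 595 and 605 CPM in DEX and iBRD9 libraries (-0.52 ± 0.06, adjusted p = 1.7e-08), and MR libraries averaged 501 CPM, below DEX and iBRD9 libraries (0.24, adjusted p = 0.031). The mitotic kinase gene Pbk averaged 8.58 CPM with JQ1 and 24.4 CPM with DEX and iBRD9. Ube2c, which encodes a ubiquitin-conjugating enzyme of mitotic exit, averaged 39.5 CPM with JQ1 and 94.1 CPM with DEX and iBRD9. Mcm10, a replication initiation factor, averaged 30.6 CPM with JQ1 and 81.9 CPM with DEX and iBRD9. Uhrf1, which maintains DNA methylation at replication, averaged 92.9 CPM with JQ1 and 204 CPM with DEX and iBRD9. Msh6 and Gins4 were the 2 S phase genes that were higher (0.22 and 0.32 on the log2 scale), and the call of Msh6 was lost without JQ1 replicate 2 or 3 or without DEX and iBRD9 replicate 1 or 3 (adjusted p from 0.059 to 0.11), and that of Gins4 with total counts (adjusted p = 0.24). The E2F core, TTTCCCGC on either strand, lay in the windows of 9 of 45 S phase genes (20%) and of 2.5% of all tested genes.

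G1 regulators went both ways. Cyclin D1 (Ccnd1), which drives entry into the cycle, had 262, 256 and 229 CPM in JQ1 libraries, against 565, 565 and 574 CPM in DEX and iBRD9 libraries (-1.19 ± 0.053, adjusted p = 8.9e-18), with 660.1 CPM in MR libraries. The cyclin E genes Ccne1 and Ccne2 and Cdk2 were lower (-0.85, -0.88 and -0.53 on the log2 scale). The retinoblastoma gene Rb1 averaged 96.8 CPM with JQ1 and 52.4 CPM with DEX and iBRD9. The CDK inhibitor gene Cdkn1b (p27) averaged 34.1 CPM with JQ1 and 22.4 CPM with DEX and iBRD9. Ccnd3, another D-type cyclin, averaged 117 CPM with JQ1 and 74.4 CPM with DEX and iBRD9. These 3 were higher, and in total 6 of 23 genes were higher and 11 lower, beside 30.3% and 31.4% of all genes.

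Replication-dependent histone genes were higher in 19 of the 20 tested of 58 in the table, beside 30.3% of all genes, with a median of 3.34. Their transcripts normally end in a stem-loop and carry no poly(A) tail. H1f2 had 285, 269 and 296 CPM in JQ1 libraries, against 47.6, 43.6 and 42.5 CPM in DEX and iBRD9 libraries (2.67 ± 0.075, adjusted p = 1.3e-22). H2bc4 had 108, 123 and 135 CPM with JQ1, against 22.3, 19 and 20.6 CPM with DEX and iBRD9, and H4c9 had 14.3, 16 and 14.2 CPM with JQ1, against 1.75, 1.91 and 1.73 CPM with DEX and iBRD9. H4c8 had 113 counts over the 3 JQ1 libraries and 0 over the 3 DEX and iBRD9 libraries, so it was at least 44.3-fold higher against a floor of 3 counts over the group. Of the 20, 11 had at least 10 counts in every JQ1 library and fewer than 10 in every DEX and iBRD9 library; they passed the filter through the group in which they were high and had to differ, so the share of 19 of 20 is no measure of all histone genes. The list summed to 0.0432 to 0.0457% of counts in JQ1 libraries and 0.00792 to 0.00861% in DEX and iBRD9 libraries. Of the 20, 12 passed with the term for liver RNA. Members of these families are near-identical, and reads may be split between them uncertainly.

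Myc and ribosome biogenesis genes were lower in 44 of 59 cases and higher in 3, with a median of -0.47. Myc had 50.3, 58.2 and 56.3 CPM in JQ1 libraries, against 95.8, 116 and 111 CPM in DEX and iBRD9 libraries (-0.97 ± 0.076, adjusted p = 5e-12). Utp20, a factor of the small ribosomal subunit processome, averaged 44.2 CPM with JQ1 and 108 CPM with DEX and iBRD9. Dkc1 (dyskerin), the pseudouridine synthase of ribosomal RNA, averaged 22.1 CPM with JQ1 and 53.2 CPM with DEX and iBRD9, and both were lower. Of the higher members, Mxd4 averaged 55.2 CPM with JQ1 and 30 CPM with DEX and iBRD9 and Mxi1 43.8 CPM with JQ1 and 19.4 CPM with DEX and iBRD9, and both proteins compete with Myc for Max. The third, Bop1, a ribosome assembly factor, averaged 100.1 CPM with JQ1 and 85.8 CPM with DEX and iBRD9, and its call was lost without DEX and iBRD9 replicate 2 (adjusted p = 0.072). Cytosolic ribosomal protein genes took the other direction in part, with 38 of 82 higher (median 0.26), but 14 higher and 8 lower with total counts (median 0.060) and 17 higher with the term for liver RNA. Rps20, a subunit of the small ribosomal subunit, had 166, 215 and 192 CPM with JQ1, against 113, 96.4 and 101 CPM with DEX and iBRD9. Mitochondrial ribosomal protein genes had 14 of 76 higher and 28 lower, or 5 and 11 with the term for liver RNA. Of all genes, 30.3% were higher and 31.4% lower.

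Lipid synthesis genes were lower in 30 of 37 cases, beside 31.4% of all genes, with a median of -0.87. The stearoyl-CoA desaturase gene Scd2 had 97.7, 93.9 and 81.6 CPM in JQ1 libraries, against 599.6, 529 and 567 CPM in DEX and iBRD9 libraries (-2.63 ± 0.065, adjusted p = 6.1e-24), and its relative Scd1 had 10.9, 8.46 and 7.61 CPM with JQ1, against 70.5, 74.8 and 84.4 CPM with DEX and iBRD9 (-3.10 ± 0.10). Fads2, a desaturase of polyunsaturated fatty acids, averaged 13.1 CPM with JQ1 and 85.1 CPM with DEX and iBRD9. Fdps, which makes farnesyl diphosphate, averaged 2.43 CPM with JQ1 and 7.66 CPM with DEX and iBRD9. The JQ1 libraries were the lower ones for all 4 genes without overlap. Acss2, an acetyl-CoA synthetase, was higher instead (38.7 CPM with JQ1 and 18.9 CPM with DEX and iBRD9, and 26.5 CPM in MR libraries). The other members that were higher were Elovl5, a fatty acid elongase (121 CPM with JQ1 and 86.7 CPM with DEX and iBRD9), and Scap, the escort of the sterol-regulated factors (56.6 CPM with JQ1 and 41.2 CPM with DEX and iBRD9, a call lost with the term for liver RNA, adjusted p = 0.2).

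Genes of lipid efflux and storage were divided, with 8 of 20 higher and 10 lower, beside 30.3% and 31.4% of all genes. The term for liver RNA left 5 higher and 8 lower. In this list 1 member had at least 10 counts in every JQ1 library and fewer than 10 in every DEX and iBRD9 library. For 1 other the reverse held, so both had to differ once tested. Fabp4, a fatty acid binding protein, had 0.369, 0.494 and 0.279 CPM in JQ1 libraries, against 13.4, 14.7 and 12.3 CPM in DEX and iBRD9 libraries (-5.10 ± 0.23, adjusted p = 6.7e-18), and 20.4, 20.6 and 21.4 CPM in MR libraries, above DEX and iBRD9 (-0.63, adjusted p = 0.0052). The nuclear receptor gene Nr1h3 (LXRα) averaged 6.42 CPM with JQ1 and 28.1 CPM with DEX and iBRD9. Pparg, another lipid-sensing nuclear receptor, averaged 7.61 CPM with JQ1 and 23.8 CPM with DEX and iBRD9. The cholesterol exporter gene Abca1 averaged 125 CPM with JQ1 and 266 CPM with DEX and iBRD9, and all 4 were lower. Apoe, a carrier of cholesterol that macrophages secrete, had 3512, 3779 and 4024 CPM in JQ1 libraries, against 1061, 1055 and 1110.0 CPM in DEX and iBRD9 libraries (1.81 ± 0.06), the reverse direction.

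Amino acid genes under ATF4 control were lower in 20 of 31 cases and higher in 6 (median -0.50). Of the 31, 1 had at least 10 counts in every DEX and iBRD9 library and fewer than 10 in every JQ1 library. It had to differ once tested. Phgdh, the first enzyme of serine synthesis, had 1.26, 0.988 and 0.559 CPM with JQ1, against 11, 8.17 and 11.1 CPM with DEX and iBRD9 (-3.43 ± 0.23, adjusted p = 1.3e-13). Slc7a11, the cystine importer, had 4.36, 3.34 and 4.12 CPM with JQ1, against 41.9, 37.2 and 40.6 CPM with DEX and iBRD9 (-3.35 ± 0.13). Asns, asparagine synthetase, averaged 19.6 CPM with JQ1 and 46.8 CPM with DEX and iBRD9, and all 3 genes were lower without overlap. Glycolysis and hypoxia genes had 16 of 37 higher and 5 lower, beside 30.3% and 31.4% of all genes. Their median of 0.097 became -0.10 with total counts, and 10 were higher with the term for liver RNA. Within them Vegfa, an angiogenic growth factor, was 8.62-fold lower (2.7 CPM with JQ1 and 23.6 CPM with DEX and iBRD9). The glycolytic gene Pgk1 averaged 1279 CPM with JQ1 and 699 CPM with DEX and iBRD9, and Pkm (pyruvate kinase) 5364 CPM with JQ1 and 2979 CPM with DEX and iBRD9. The mitophagy gene Bnip3l averaged 142 CPM with JQ1 and 63.3 CPM with DEX and iBRD9, and these 3 were higher.

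Lysosomal genes were higher in 34 of 52 cases and lower in 9, beside 30.3% and 31.4% of all genes, with a median of 0.33 (0.13 with total counts). They summed to 5.51 to 5.77% of counts in JQ1 libraries and 3.87 to 3.95% in DEX and iBRD9 libraries. Ctsb, cathepsin B, an abundant lysosomal protease, had 25213, 26347 and 27417 CPM in JQ1 libraries, against 11343, 11416 and 11279.5 CPM in DEX and iBRD9 libraries (1.21 ± 0.046, adjusted p = 1.4e-19). Ctsd, cathepsin D, had 3831, 4579.8 and 3977 CPM with JQ1, against 1985, 1744 and 1682 CPM with DEX and iBRD9 (1.19 ± 0.095). Sgsh, which degrades heparan sulfate, had 96.7, 87.1 and 91.2 CPM with JQ1, against 23.9, 22.4 and 22 CPM with DEX and iBRD9 (2.01 ± 0.099). All 3 were higher in every JQ1 library. Man2b1, a mannosidase, averaged 1232 CPM with JQ1 and 522 CPM with DEX and iBRD9, and Ppt1, a thioesterase, 331 CPM with JQ1 and 119.9 CPM with DEX and iBRD9. Psap, the precursor of the saposins, averaged 10677 CPM with JQ1 and 6081 CPM with DEX and iBRD9. The protease genes Lgmn (425 CPM with JQ1 and 736 CPM with DEX and iBRD9) and Ctss (1099.9 CPM with JQ1 and 1632 CPM with DEX and iBRD9), which process antigen, were lower.

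The E-box CACGTG, a palindrome bound by Myc and by the TFEB family that controls lysosomal genes, was found in the windows of 16 of 40 lysosomal genes (40%), of 13 of 51 Myc and ribosome biogenesis genes (25.5%) and of 11.7% of all tested genes with a window. It thus occurred in lists that moved in opposite directions. The following 4 sites, 2 from each list, show the element beside genes that were higher (Sgsh, Ctsd and Mxd4) and lower (Utp20), with the match in capitals and the strand of the gene read 5′ to 3′ (RefSeq, GRCm38.p6).
Sgsh: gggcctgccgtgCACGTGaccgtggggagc
Ctsd: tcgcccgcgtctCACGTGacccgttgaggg
Mxd4: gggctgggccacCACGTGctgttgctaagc
Utp20: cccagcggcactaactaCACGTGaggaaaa
All 4 lie on the minus strand, at chr11:119355522-119355551, chr7:142387908-142387937, chr5:34187912-34187941 and chr10:88826765-88826794.

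Respiratory chain genes encoded in the nucleus had 28 of 78 higher and 5 lower (median 0.21), beside 30.3% and 31.4% of all genes. With total counts they had 14 higher and 18 lower, where the median was 0.017, and with the term for liver RNA 10 higher and 2 lower. The 11 mitochondrially encoded genes tested were higher in 10 cases (median 0.68), or in 4 cases with that term, among them mt-Nd4, a subunit of complex I, which had 1578, 1501 and 1812 CPM with JQ1, against 755, 868 and 937 CPM with DEX and iBRD9 (0.93 ± 0.13, adjusted p = 0.00012). They took 2.72 to 3.20% of counts in JQ1 libraries and 2.05 to 2.43% in DEX and iBRD9 libraries (exact permutation test, two-sided p = 0.10, the smallest possible).

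Of 23 genes of antigen presentation through MHC class I, 18 were lower and 3 higher (median -0.80). The list's summed share was nevertheless higher in every JQ1 library, at 1.03 to 1.15% of counts, against 0.979 to 0.998% in DEX and iBRD9 libraries. Of the 23, 2 had at least 10 counts in every DEX and iBRD9 library and fewer than 10 in every JQ1 library. Those 2 had to differ once tested. Tap1, a subunit of the peptide transporter, averaged 45.9 CPM with JQ1 and 131 CPM with DEX and iBRD9. The immunoproteasome gene Psmb10 averaged 34.8 CPM with JQ1 and 94.3 CPM with DEX and iBRD9, and Psmb9, which lies beside Tap1, 17.1 CPM with JQ1 and 36.3 CPM with DEX and iBRD9. Nlrc5, the transactivator of class I genes, averaged 46.7 CPM with JQ1 and 112 CPM with DEX and iBRD9. The 4 were lower. The classical heavy chain genes were higher instead, H2-D1 with 3846, 4543 and 4255 CPM in JQ1 libraries, against 2126, 2048 and 2039 CPM in DEX and iBRD9 libraries (1.02 ± 0.071, adjusted p = 2.9e-11) and H2-K1 with 1963, 2378 and 2257 CPM with JQ1, against 1442, 1332 and 1348 CPM with DEX and iBRD9. H2-T24, a non-classical gene, had 6.79, 2.53 and 4.61 CPM with JQ1, against 78.5, 93.3 and 86.8 CPM with DEX and iBRD9. H2 genes are alike in sequence, so reads may be split uncertainly. Of 15 class II and costimulatory genes, 7 were lower and 4 higher, beside 31.4% and 30.3% of all genes. Among the lower were H2-Aa (1.1 CPM with JQ1 and 10.7 CPM with DEX and iBRD9) and Cd274, which encodes PD-L1 (8.26 CPM with JQ1 and 58.1 CPM with DEX and iBRD9). Among the higher were the costimulatory genes Icosl (33.5 CPM with JQ1 and 12.8 CPM with DEX and iBRD9) and Cd86 (16.7 CPM with JQ1 and 9.88 CPM with DEX and iBRD9, a call lost with the term for liver RNA, adjusted p = 0.18).

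Immediate early genes gave no common direction, with 11 of 28 higher and 12 lower, beside 30.3% and 31.4% of all genes. Their median of 0.11 became -0.088 with total counts. It also turned below 0 when JQ1 replicate 3 or DEX and iBRD9 replicate 1 or 3 was left out (-0.040, -0.029 and -0.049). Ier3 had 74.1, 70.5 and 78.4 CPM with JQ1, against 16.7, 16.6 and 17.4 CPM with DEX and iBRD9 (2.13 ± 0.11, adjusted p = 1.6e-16) and was higher in every JQ1 library. Ier2 averaged 62.1 CPM with JQ1 and 23.4 CPM with DEX and iBRD9, and Btg2, an antiproliferative gene, 29.2 CPM with JQ1 and 8.22 CPM with DEX and iBRD9, both higher like Egr1. Egr2, like Fos and Fosl1, was lower (4.42 CPM with JQ1 and 10.2 CPM with DEX and iBRD9). Of the 28, 1 had at least 10 counts in every DEX and iBRD9 library and fewer than 10 in every JQ1 library. It had to differ once tested.

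**Figure D4:**
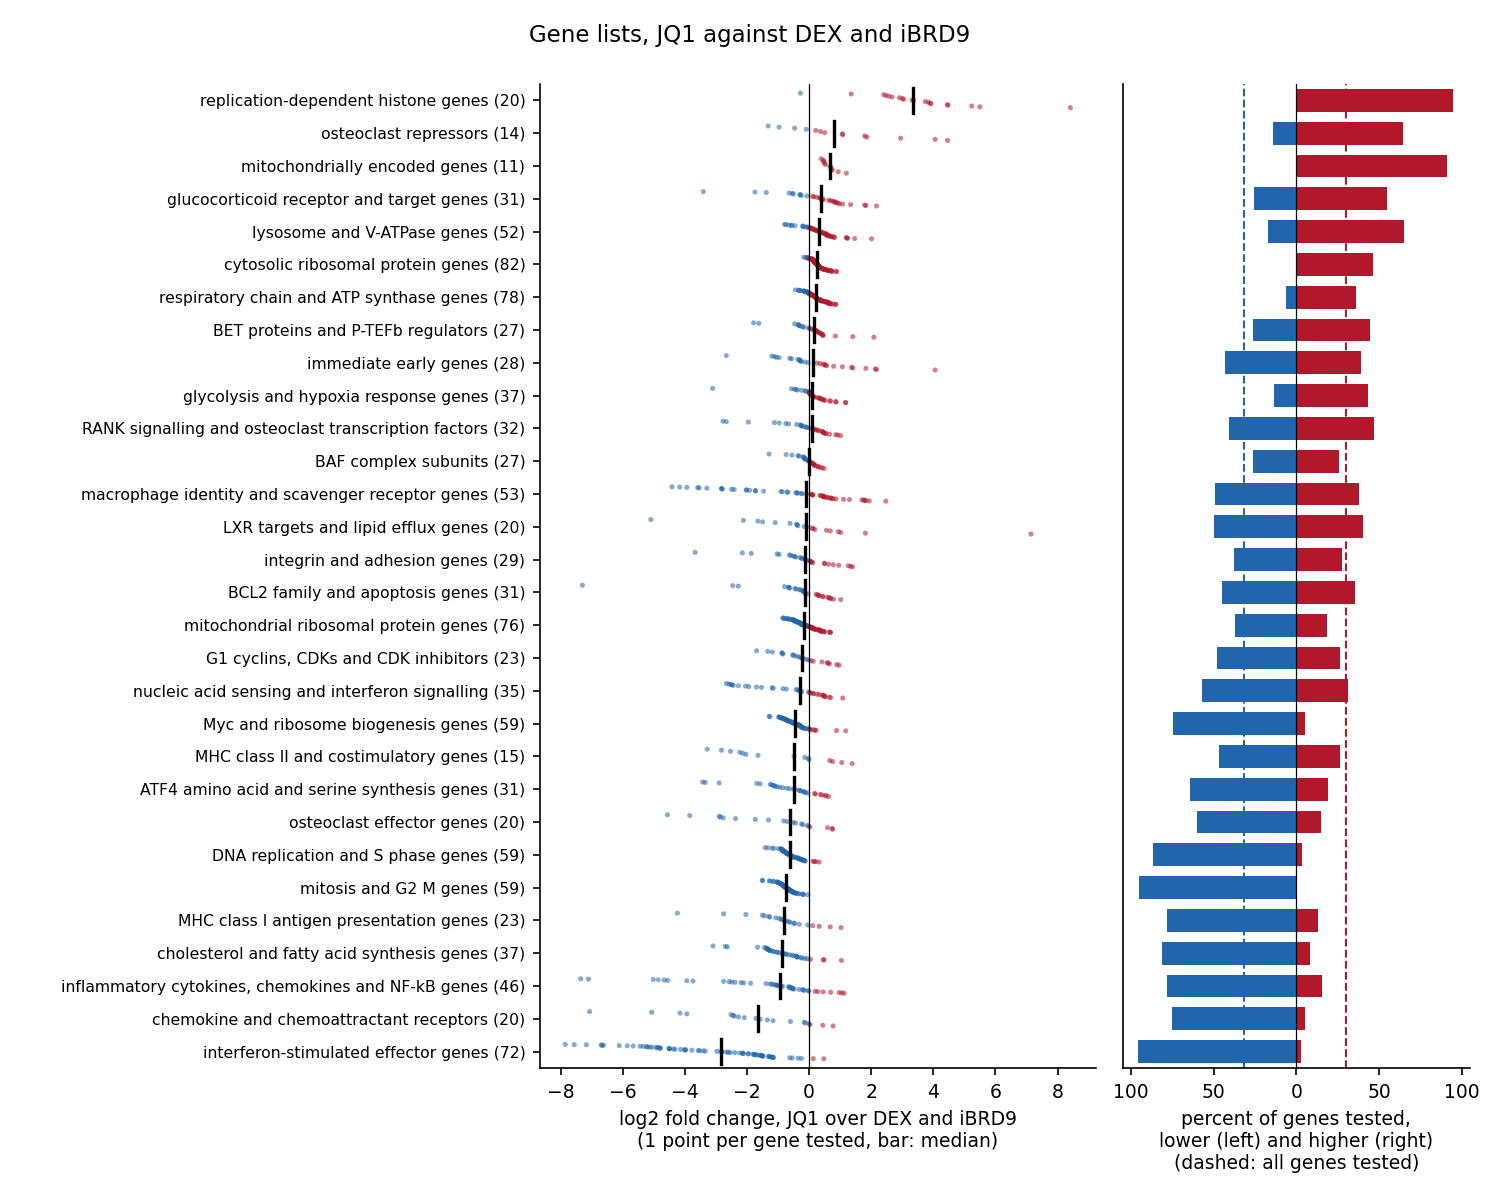
Left, the log2 fold change of every tested member of the gene lists (points, red above and blue below 0) with the list's median (bar), ordered by median from replication-dependent histone genes (3.34 over 20 genes, 11 of which had to differ once tested, and 2.85 over 8 genes with a stricter filter) to interferon-stimulated effector genes (-2.83). Right, the percent of members that were lower (blue, to the left) and higher (red, to the right), with dashed lines at the shares of all genes, 31.4% lower and 30.3% higher. With total counts the medians of BET and P-TEFb, immediate early, glycolysis and RANK signalling genes fall below 0.

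Against this background, some abundant genes were alike. The 10 most abundant of the genes whose 95% interval lay inside a fold of 1.2 included Cybb, the catalytic subunit of the phagocyte NADPH oxidase, at 1655 ± 144 CPM in JQ1 libraries and 1634 ± 6.4 CPM in DEX and iBRD9 libraries (SD, n = 3 each), with a log2 interval of -0.10 to 0.13. Hsp90ab1 had an interval of -0.15 to 0.06, Ctsl (cathepsin L) of -0.15 to 0.07, Iqgap1, a cytoskeletal scaffold, of -0.15 to 0.08, and Actb (β-actin) of -0.20 to -0.01. Actb passed the test with an adjusted p of 0.044 at that small size, and did not without JQ1 replicate 1 or any 1 of the DEX and iBRD9 libraries (adjusted p from 0.065 to 0.13). The others were Vim, Nrp2, Tln1, B2m and Gpnmb. With total counts the median gene shifted by -0.20, and Cybb, Tln1, B2m and Gpnmb then had negative values (-0.18, -0.12, -0.09 and -0.08), so the genes were alike relative to the median gene.

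The differences varied with the level and promoter of a gene. By level in MR libraries, which are outside the comparison, the lowest of 5 equal bins had 16% of genes higher and 31.4% lower, with 27.1% at least 2-fold lower and a median of -0.30, while the highest bin had 39.5% higher, 32.8% lower and a median of 0.048. Low genes entered the test only where at least 1 group reached the count filter. By GC share of the promoter window, the lowest of 5 bins had 19.8% higher and 42.9% lower, with 23.3% at least 2-fold lower, and the highest bin 37.7% higher and 23.4% lower. The 201 genes with a single exon had 41.8% higher and 11.4% lower with a median of 0.34, of which histone genes form a part, and the other exon classes had medians from -0.027 to 0.032. Transcript length gave medians from -0.027 to 0.020 over 5 equal bins and no order. The difference between the highest and lowest bin by MR level was 0.35, or 0.21 with a stricter filter. These are shares of genes, which are not replicates, and no test was applied.

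**Figure D5:**
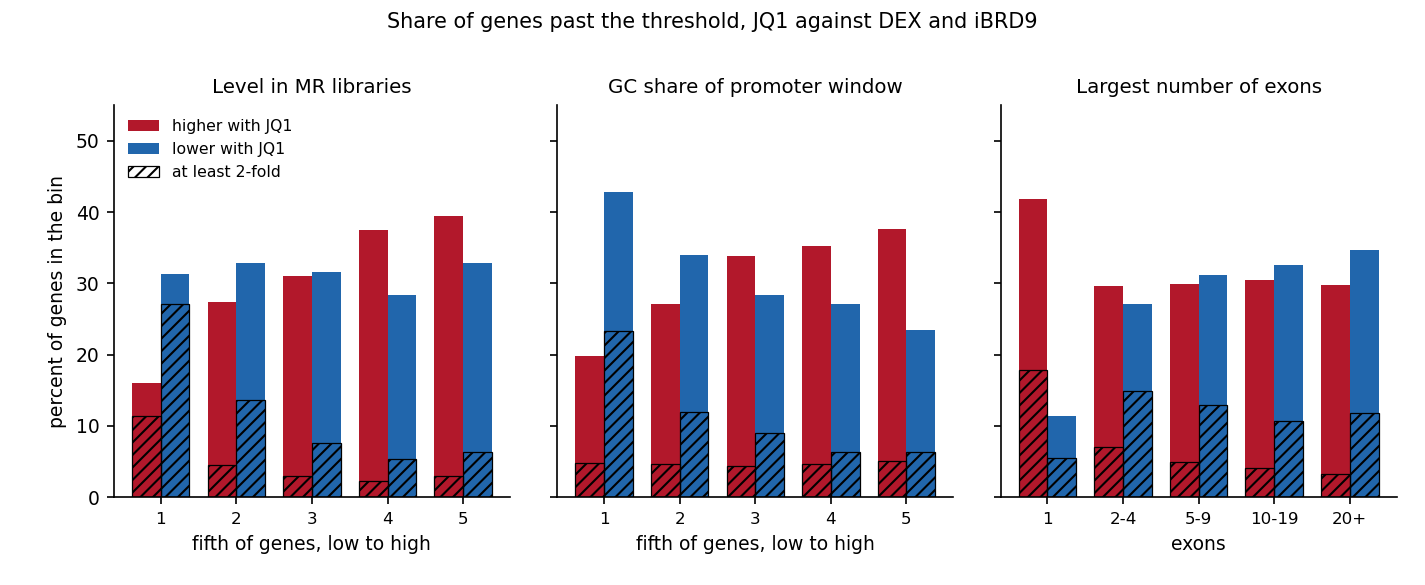
Percent of genes that were higher (red) and lower (blue) with JQ1, with hatching for those at least 2-fold changed, in 5 equal bins by level in MR libraries (left), in 5 by GC share of the promoter window (centre) and by the largest number of exons (right). The share lower is 42.9% in the lowest and 23.4% in the highest GC bin, and single-exon genes stand out with 41.8% higher.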

How the data were processed

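RNA was read from 12 libraries of mouse BMDMs, 3 in each of 4 groups, prepared with the NEBNext Ultra II kit, with 14875951 to 18067758 counts each. The authors trimmed reads with cutadapt, aligned them with HISAT2 to GRCm39 and counted them per gene with HTSeq (in versions that the study's methods name; the strand setting is not given in the sources used here), per the labels and the processing notes. The deposited table holds raw counts per gene and FPKM computed from them; the counts were tested, and the deposited FPKM served only to recover the transcript length behind each value. No column belonged to an unlabelled sample. Of 21899 gene IDs, 21700 matched GENCODE, and the other 199 held 0.0128 to 0.0159% of counts. Within the 2 groups compared, replicates differed by more than sampling noise in every pair, so none was merged. Chi-square per degree of freedom was 12.6 and 15.7 for pairs with JQ1 replicate 1 and 7.03 for JQ1 replicates 2 and 3. It was 3.55 to 5.40 for DEX and iBRD9 pairs. MR and dBRD9 pairs were not examined. Gene coordinates came from GENCODE on GRCm39, the build of the counts, and promoter windows from RefSeq on GRCm38.p6, used for their letters and GC share.

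Counts were fitted with edgeR 4.0.16 in R 4.3.3 (filterByExpr, TMM, robust quasi-likelihood fit, all 12 libraries, 8 residual degrees of freedom), with the contrast JQ1 minus DEX and iBRD9 and Benjamini-Hochberg adjustment over the 11670 genes, called at an adjusted p under 0.05. The study's methods name DESeq with a fold of 1.2 and a p under 0.05, tried here as an alternative with DESeq2 1.42.0. Other alternatives were the DESeq2 adjusted p without a fold, that fold and unadjusted p in edgeR, other scaling, other filters, a minimum fold, the 6 libraries alone, a term for the division of libraries by liver RNA (at least 100 Alb counts, 7 libraries) and leaving out each library. The biological coefficient of variation was 9.88% in JQ1 and 5.45% in DEX and iBRD9 libraries. Floors and intervals of counts cover counting error only. The test was checked on simulated data with known fold changes.

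Named genes were the 12 largest changes in each direction (mean of 5 CPM or more, groups that did not overlap), up to 6 called members per list and direction (mean of 1 CPM or more), a set of 31 genes given whatever their values, and the 10 most abundant genes whose interval lay inside a fold of 1.2. Some genes that these rules name are not reported here. Predicted genes were left out of the largest changes, as were hepatocyte and muscle markers. Gene lists, markers and rules were chosen with earlier results of these data known, and no list was tested as a set. Genes that overlap others cannot be separated where the counting did not use strand, and members of near-identical families are uncertain.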

Additional observations from a re-analysis of the deposited data

Results flagged for a closer look

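Liver RNA was also present in libraries outside the comparison. Alb had 758, 738 and 866 counts in dBRD9 replicates 1, 2 and 3 and 801 counts in MR replicate 3, against at most 1 count in the DEX and iBRD9 libraries and at most 2 in the other MR libraries. These libraries belong to neither group compared but entered the fit across all 12 libraries. With the 6 libraries alone, 3307 genes were higher and 3471 lower with JQ1. In a principal component analysis of all 12 libraries, the second component held 6.33% of the variance. On it MR replicate 3 lay at -15.5, near the dBRD9 libraries (-22.5 to -13.5). MR replicates 1 and 2 lay at 14.1 and 10.4, near the DEX and iBRD9 libraries (12.1 to 16.2), and JQ1 libraries at -1.47 to 3.20. The source of the liver RNA and of this division was not tested.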

How the results depend on the processing

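The counts of genes called, 3535 higher and 3665 lower, were within 1.5 times of these under the DESeq2 size factors, the DESeq2 Wald test (3560 and 3643), no filter, a stricter filter, the 6 libraries alone, an unadjusted p with a fold of 1.2 in edgeR (3071 and 3467) and, chosen after seeing the data, in DESeq2 (3093 and 3430). Total counts gave 2161 higher, a minimum fold of 1.2 gave 2191 higher, and the term for liver RNA gave 1941 higher and 2341 lower. Leaving out 1 library gave 3174 to 3471 higher and 3404 to 3678 lower. Of 30 lists, 10 had more members higher than lower, or 6 with total counts, and 10 to 12 when 1 library was left out, while 19 had more lower, or 17 to 19 then. List medians changed sign with total counts for RANK signalling (-0.12), BET (-0.035), immediate early (-0.088) and glycolysis genes (-0.10), and with the term for liver RNA for immediate early genes (-0.041), hepatocyte markers (-0.088) and muscle markers (-0.20). The immediate early median also turned with a stricter filter (-0.14) and ranged from -0.049 to 0.33 when 1 library was left out. The difference in median between the highest and lowest bin by MR level was 0.35, or 0.21 with a stricter filter, 0.23 in the 6 libraries alone, 0.40 with the term for liver RNA and 0.33 to 0.37 without 1 library; that by length ran from -0.10 to 0.042. Of the genes named, Cybb (-0.18), Gpnmb (-0.075) and Shisa5 (-0.065) turned with total counts. The cause of these changes was not tested, apart from the shift of -0.20 that total counts give all genes. No paired analysis was possible because replicate numbers were given in accession order and name no shared animal or culture. Depth limited genes under about 10 counts per library, which the filter left out.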

Other observations

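Cell death and adhesion genes add to the account of the comparison. Of 31 genes of the BCL2 family and of apoptosis, 11 were higher and 14 lower with JQ1 than with DEX and iBRD9 (median -0.14), beside 30.3% and 31.4% of all genes. Bmf, a pro-apoptotic BH3-only gene, averaged 9.53 CPM with JQ1 and 4.7 CPM with DEX and iBRD9, and Bcl2l11 (Bim), another, 115 CPM with JQ1 and 76.3 CPM with DEX and iBRD9. Both were higher. Mlkl, the effector of necroptosis, averaged 12.8 CPM with JQ1 and 70.7 CPM with DEX and iBRD9 (-2.46 ± 0.099), and Birc3, an inhibitor of apoptosis, 162 CPM with JQ1 and 255 CPM with DEX and iBRD9, both lower. In the fit with the term for liver RNA, 4 members of the list were higher and 6 lower. Of the 31, 1 had at least 10 counts in every DEX and iBRD9 library and fewer than 10 in every JQ1 library. It had to differ once tested.

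Of 29 integrin and adhesion genes, 8 were higher and 11 lower (median -0.12), beside 30.3% and 31.4% of all genes. The list's summed share was 1.17 to 1.21% of counts in JQ1 libraries and 0.934 to 0.941% in DEX and iBRD9 libraries. Spp1 (osteopontin), a secreted ligand of integrins, averaged 4423 CPM with JQ1 and 1681 CPM with DEX and iBRD9 (1.40 ± 0.06), and 2029 CPM in MR libraries, which DEX and iBRD9 libraries were below (-0.27, adjusted p = 0.013). Itgb2, the shared subunit of the leukocyte integrins, averaged 3328 CPM with JQ1 and 1718 CPM with DEX and iBRD9, and Itgb5 163 CPM with JQ1 and 68.2 CPM with DEX and iBRD9. Itgax (CD11c) averaged 8.21 CPM with JQ1 and 36.5 CPM with DEX and iBRD9 and was lower, as was Vcam1, an adhesion molecule (0.668 CPM with JQ1 and 8.51 CPM with DEX and iBRD9).

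Some genes had counts in 1 of the 2 groups alone, and these were chosen after their values were seen. Vegfc, a lymphatic growth factor, had 0 counts over the 3 JQ1 libraries and 314 over the DEX and iBRD9 libraries, at least 89.0-fold lower against a floor of 3 counts over the group. Gfi1b, a transcriptional repressor of blood cell formation, had 0 and 228 counts over the JQ1 and the DEX and iBRD9 libraries (at least 64.6-fold lower). Serpinb2, a plasminogen activator inhibitor of macrophages, had 0 and 107 counts over the same groups (at least 30.3-fold lower). The neutrophil granule gene Camp had 0 and 101 counts (at least 28.6-fold lower), again in JQ1 and in DEX and iBRD9 libraries.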
